A study of Mus musculus with 23 samples.

Results

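The 34 genes described here mark the subfields of the mouse hippocampus. They were taken as a fixed list of gene symbols, and all 34 were found among the 13766 gene records of a count table made from 23 whole hippocampi. By the subfield each is known to mark, 11 belong to granule cells of the dentate gyrus, 8 to CA1, 6 to CA2, 3 to CA3 and 2 to mossy cells of the dentate hilus. Neurod6 marks pyramidal neurons of all CA fields, and Cpne7, Nrip3 and Ociad2 were not assigned to a subfield. The study crossed sex chromosomes with gonad type in FCG mice (the core genotypes model) of the C57Bl/6J strain, at about 12 months of age. Sry, which directs testis formation, is deleted from the Y chromosome of this model and carried as an autosomal transgene, so that gonad type is inherited apart from the sex chromosomes. The groups were XX mice with ovaries (XXF, n = 5), XX mice with testes (XXM, n = 6), XY mice with ovaries (XYF, n = 6) and XY mice with testes (XYM, n = 6), each library from a different animal. Mice with testes carry the Sry transgene and were caged by genital appearance, so effects of gonad, transgene and cage sex cannot be told apart.

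The hippocampus passes signals along a chain of subfields. Granule cells of the dentate gyrus receive input from the entorhinal cortex and send mossy fibres to CA3, whose pyramidal neurons project to CA1, the main output field. CA2 is a small field between CA3 and CA1 known for its part in social memory, and mossy cells of the hilus project back onto granule cells. In RNA from a whole hippocampus, each marker reflects both how much of its subfield was in the dissected piece and how strongly the cells there transcribe it. Fewer cells of a subfield and less RNA per cell cannot be told apart in such samples.

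Estimated counts summed to between 10257751 and 36078221 per library, and levels are given as CPM, the count of a gene relative to the scaled size of its library. Of the 34 markers, 33 had at least 20 counts in every library. The exception was Drd2, with 12 counts in its lowest library. Neuronal markers (5 of 5 found) summed to 4386 to 5125 CPM in XXF, 4487 to 5199 in XXM, 4527 to 5216 in XYF and 4459 to 5109 in XYM. Markers of the choroid plexus, the epithelium beside the hippocampus (7 of 8 found), ranged far more widely, from 68.5 to 1901 CPM in XXF, 122 to 2600 in XXM, 73.8 to 3317 in XYF and 56.4 to 2690 in XYM. One library went against its label in part. Xist, transcribed from the inactive X chromosome, stood at 94.1 CPM in XYF replicate 4, against at most 2.86 CPM in the other 11 XY libraries and at least 936 CPM in the XX libraries. The gonad differences of 6 dentate markers and the r of the main marker pairs are also given without it.

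Compared per kilobase of exon, the scale on which levels of different genes can be set side by side, Pcp4 was the most abundant marker at 151 ± 19.7 CPM per kb (mean ± SD over the 23 libraries). Pcp4, a calmodulin-binding protein gene of CA2, was followed by Cpne7 at 109 ± 15.95 and by Neurod6 at 104 ± 10.9 CPM per kb. Cpne7 and Neurod6 lay within their spread of each other. The most abundant CA1 marker was Mpped1 at 80.7 ± 7.87 CPM per kb, and the most abundant dentate marker was C1ql2 at 36.3 ± 5.97. Prox1, the transcription factor that sets granule cell identity, stood at 8.51 ± 1.32 CPM per kb. At the bottom of the order came Drd2 at 0.952 ± 0.341, Csf2rb2 at 0.847 ± 0.224 and Map3k15 at 0.834 ± 0.324 CPM per kb, whose spreads overlap. Markers of each of CA1, CA2 and the dentate gyrus were detected in all 23 libraries. Genes were kept only with raw values of at least 20 in every sample of at least 1 group. Detection was thus largely set by that filter and is no check of the tissue.

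Of the 34 markers, 0 passed the test for the effect of the gonad, the effect of the sex chromosomes or their interaction at an adjusted p under 0.05 (quasi-likelihood test of edgeR, adjusted over the 13766 genes by the Benjamini-Hochberg method). The share of all genes that passed was 0.16% for the gonad, 0.283% for the sex chromosomes and 0.0% for the interaction. Before adjustment, 10 markers had p under 0.05 for the gonad, 6 for the sex chromosomes and 0 for the interaction in edgeR's test. Among all genes these shares were 13.6%, 6.78% and 3.23%. With DESeq2 in place of edgeR, 1 marker passed for the gonad (Sema5a), 1 for the sex chromosomes (Wfs1) and 0 for the interaction. The sizes of the averaged effects were bounded narrowly. Of the 68 intervals for the gonad and sex chromosome effects (95% confidence), 65 lay within a 1.5-fold difference in either direction, a log2 value of 0.585, and they reached between 0.08 and 0.43 to either side of the estimate. The exceptions were Glis3 and Map3k15 for the gonad, with intervals of 0.09 to 0.61 and -0.03 to 0.81, and Drd2 for the sex chromosomes, with an interval of -0.59 to 0.28 (all log2).

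**Figure D1:**
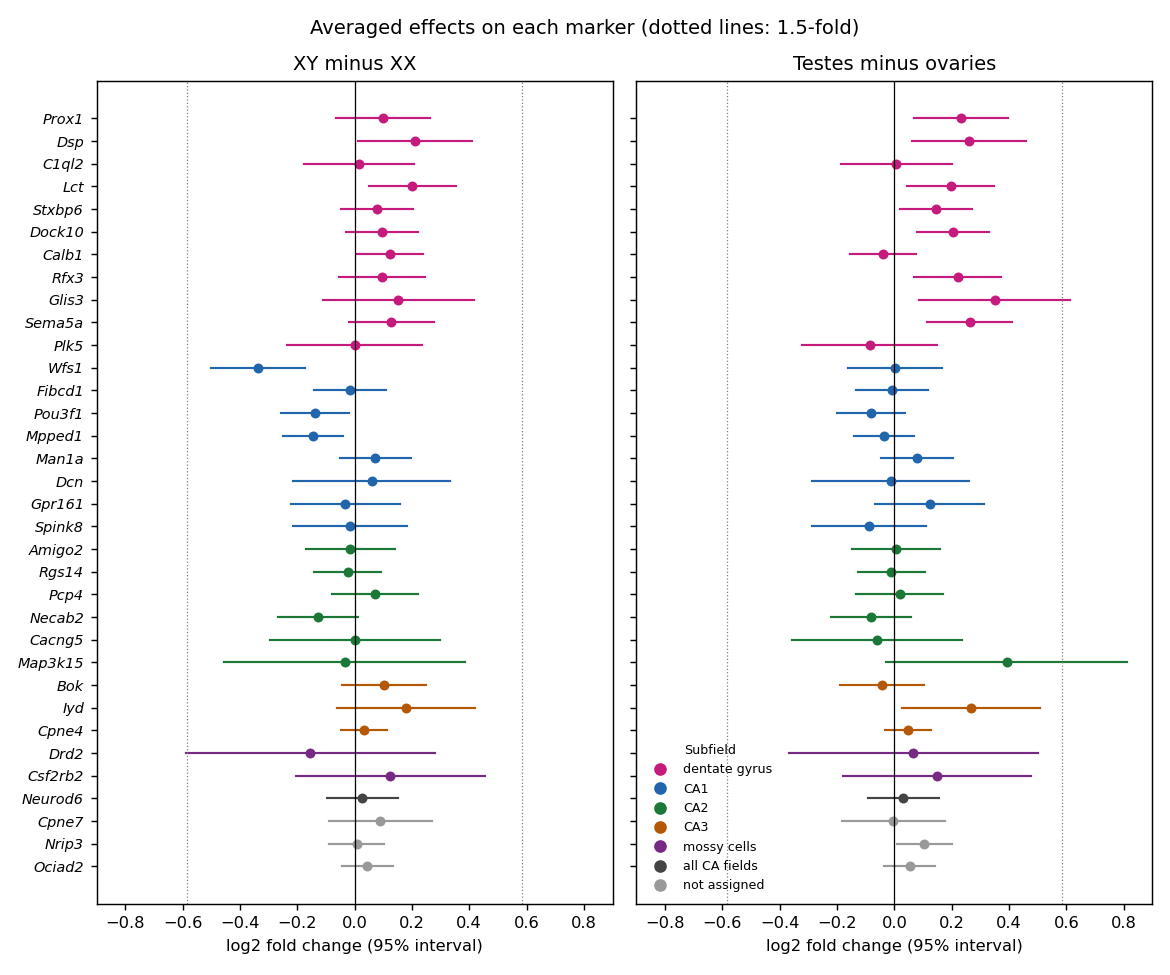
Averaged effects on each of the 34 markers as log2 fold change (points) with 95% confidence intervals (lines), coloured by subfield, for XY minus XX on the left and testes minus ovaries on the right. In the right panel 9 of 11 dentate gyrus markers lie above 0, where 49.0% of all genes do, and in the left panel Wfs1 lies farthest below 0.

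The bases before the start sites of the dentate marker Sema5a, of Dsp and Lct, each of which varied with Sema5a across libraries, and of Wfs1, the CA1 marker with the smallest p for the sex chromosomes, are shown because the results turn on these genes. They are the 250 bases before the start in RefSeq (GRCm38.p6), 5′ to 3′ on the strand of the gene, with each GC box (GGGCGG, or CCGCCC on the other strand) in capitals. Sema5a lies at chr15:32244563-32244812 on the plus strand, Dsp at chr13:38151044-38151293 on the plus strand, Lct at chr1:128328319-128328568 on the minus strand and Wfs1 at chr5:36988983-36989232 on the minus strand.
Sema5a: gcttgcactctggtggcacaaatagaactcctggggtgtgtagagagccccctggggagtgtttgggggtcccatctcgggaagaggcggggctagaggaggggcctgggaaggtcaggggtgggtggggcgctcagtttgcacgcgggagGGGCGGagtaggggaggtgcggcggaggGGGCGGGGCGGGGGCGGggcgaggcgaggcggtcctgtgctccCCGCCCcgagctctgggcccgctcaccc
Dsp: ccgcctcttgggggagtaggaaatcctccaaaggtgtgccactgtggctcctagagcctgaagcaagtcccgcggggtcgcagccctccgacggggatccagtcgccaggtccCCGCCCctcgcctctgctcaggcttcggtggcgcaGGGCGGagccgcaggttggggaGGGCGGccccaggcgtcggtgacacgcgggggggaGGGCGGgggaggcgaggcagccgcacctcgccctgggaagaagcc
Lct: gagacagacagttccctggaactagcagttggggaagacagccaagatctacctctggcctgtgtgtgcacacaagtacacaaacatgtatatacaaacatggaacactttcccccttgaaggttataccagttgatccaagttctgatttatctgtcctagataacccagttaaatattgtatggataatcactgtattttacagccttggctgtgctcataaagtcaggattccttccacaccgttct
Wfs1: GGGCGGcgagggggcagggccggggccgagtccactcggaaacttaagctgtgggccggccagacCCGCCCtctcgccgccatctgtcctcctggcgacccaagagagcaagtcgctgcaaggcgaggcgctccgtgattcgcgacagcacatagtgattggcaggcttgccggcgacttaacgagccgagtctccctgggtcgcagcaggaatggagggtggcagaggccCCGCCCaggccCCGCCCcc

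The windows of Sema5a, Dsp and Wfs1 were rich in G and C, at 72.0%, 72.4% and 69.6%, and held 5, 4 and 4 GC boxes. Lct varied with Sema5a across libraries, yet its window held 0 GC boxes and was 42.8% G and C. RefSeq windows were matched for 26 of the 34 markers, in 32 windows. A GC box was found in 53.1% of these, against 32.7% of all 32851 windows of the same length, and the median G and C content was 63.0% against 52.4%. The E-box CAGATG, searched on both strands, was found in 18.8% of marker windows against 14.4% of all. TATAAA was found in 9.38% against 12.4%, and the octamer ATGCAAAT in 0.0% against 1.6%. A match is a description of these letters only.

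Most dentate gyrus markers had higher levels in mice with testes, by 1.11 to 1.27-fold among those with the smallest p, without any passing after adjustment in edgeR's test. Prox1 had levels of 58.8, 72.0, 46.5, 70.6 and 72.9 CPM in the 5 XXF libraries. In XXM it ranged from 63.6 to 84.5 CPM with a median of 72.7, in XYF from 48.5 to 81.0 with a median of 67.0, and in XYM from 75.8 to 84.6 with a median of 80.5. All 6 XYM libraries lay above all 5 XXF libraries, while the XXM and XYF ranges overlapped with both. XYM and XXF differ in both gonad and sex chromosomes, and the share of all genes that separate them was not counted. The gonad effect on Prox1 was 0.23 ± 0.08 (log2 ± SE), with an adjusted p of 0.22 by edgeR.

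Sema5a, whose start is preceded by the 5 GC boxes shown, encodes a semaphorin that limits synapse formation on granule cells. It had the smallest p of all markers for the gonad. Its levels were 142, 168, 118, 169 and 179 CPM in XXF. The XXM libraries ranged from 168 to 220 CPM (median 177), the XYF libraries from 131 to 205 (median 167) and the XYM libraries from 174 to 227 (median 205). The ranges of all 4 groups overlapped, and the 3 lowest libraries were all from mice with ovaries. The log2 difference was 0.26 ± 0.07, with an unadjusted p of 0.00123 and an adjusted p of 0.145 in edgeR's test. DESeq2 gave an adjusted p of 0.0472.

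Dock10, an activator of small GTPases, had 117, 118, 106, 146 and 142 CPM in XXF. It ranged from 120 to 175 CPM in XXM (median 142), from 117 to 147 in XYF (median 136) and from 142 to 163 in XYM (median 158). Here too the groups overlapped, and the gonad difference was 0.21 ± 0.06 (log2), with an adjusted p of 0.172 by edgeR. Rfx3, a transcription factor of the RFX family, had 109, 99.5, 98.1, 118 and 109 CPM in XXF. Its medians were 129 CPM in XXM (101 to 135), 119 in XYF (76.7 to 132) and 133 in XYM (109 to 149). For Rfx3 the gonad difference was 0.22 ± 0.07 (log2), with an adjusted p of 0.209 by edgeR.

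Dsp, the gene of the junction protein desmoplakin, had 61.3, 68.1, 43.6, 56.5 and 53.8 CPM in XXF. It ranged from 58.0 to 93.1 CPM in XXM (median 71.8), from 57.5 to 93.9 in XYF (median 61.8) and from 57.9 to 92.9 in XYM (median 79.6). The XXF libraries thus held the low end of the range and the other 3 groups reached the same top. Lct, the lactase gene, whose level in granule cells differs along the dorsal to ventral axis, had 49.9, 61.6, 39.5, 59.1 and 57.4 CPM in XXF. Its values ran from 52.4 to 69.8 CPM in XXM (median 60.8), from 45.1 to 69.1 in XYF (median 64.6) and from 65.1 to 81.5 in XYM (median 67.9). All 6 XYM libraries lay above all 5 XXF libraries for Lct, as they did for Prox1, again without a count over all genes. The gonad differences were 0.26 ± 0.10 for Dsp and 0.20 ± 0.07 for Lct (log2), with adjusted p of 0.254 and 0.256 by edgeR.

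Calb1, the calcium buffer calbindin of mature granule cells, showed another pattern. Of the 10 other dentate markers, 0 were among the 5% of genes most positively correlated with it within groups. It went with Neurod6 of the CA fields and not with Prox1, as given below. Whether its level reflects granule cells alone was not tested. Its levels were 114, 120, 141, 118 and 106 CPM in XXF, and its medians were 119 CPM in XXM (113 to 136), 143 in XYF (113 to 150) and 122 in XYM (112 to 147). The XYF libraries had the highest median and the groups overlapped. C1ql2, a synaptic organiser secreted by mossy fibres, had 71.0, 71.8, 53.9, 80.1 and 82.3 CPM in XXF and group medians of 75.8 (XXM), 72.6 (XYF) and 69.1 CPM (XYM). The log2 gonad differences of -0.04 ± 0.06 for Calb1 and 0.01 ± 0.09 for C1ql2 were both smaller than their standard errors. Plk5, a kinase-like gene of the brain, had a log2 difference of -0.09 ± 0.11.

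Counted over the subfield, 9 of 11 dentate markers had a positive gonad difference, where 49.0% of all genes did. Their median was 0.21 (log2) against -0.00 over all genes. Most dentate pairs were positively correlated within groups, so the markers do not count as independent observations. At an unadjusted p under 0.05, 8 of the 11 were higher with testes in edgeR's test, where 6.49% of all genes were. The 8 were Sema5a, Dock10, Rfx3, Prox1, Glis3, Dsp, Lct and Stxbp6, and 0 dentate markers were lower at that level, where 7.14% of all genes were. The other subfields gave medians of -0.01 for CA1, -0.00 for CA2, 0.05 for CA3 and 0.11 for the 2 mossy cell markers. The count of 8 fell to 4 when XXF replicate 3 and XYF replicate 4, the libraries with the lowest Prox1, were left out together, an alternative chosen after seeing the data. Without both libraries the gonad differences were 0.19 for Sema5a, 0.15 for Prox1 and 0.11 for Lct (log2). The count was 7 without XYF replicate 4 alone, and 7 or 8 when any single library was left out. Without XYF replicate 4 the gonad differences were 0.23 for Sema5a, 0.20 for Prox1, 0.19 for Dock10, 0.21 for Rfx3, 0.24 for Dsp and 0.16 for Lct (log2), with adjusted p between 0.22 and 0.356 by edgeR.

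The ranges of library depth and of neighbouring tissue markers were also unlike between the groups, and these differences were not tested. Library totals ran from 10257751 to 36078221 in XXF and from 11548107 to 25636174 in XYF, against 21143397 to 32393132 in XXM and 15921603 to 32618568 in XYM. Subiculum markers (3 of 3 found, among them Slc17a6, a vesicular glutamate transporter) summed to 107 to 125 CPM in XXF, 85.7 to 126 in XXM, 79.7 to 125 in XYF and 61.1 to 109 in XYM. Neocortex markers (4 of 5 found) summed to 131 to 145 CPM in XXF, 119 to 129 in XXM, 119 to 130 in XYF and 104 to 144 in XYM. Both lists were lowest in XYM replicate 3, the library with the highest dentate level. The part of depth and of these tissues in the gonad difference of the dentate markers was not tested. With the choroid plexus or the thalamus level as a covariate, 8 of 11 dentate markers were again higher with testes at an unadjusted p under 0.05 by edgeR. Mean thalamus levels were close, at 3.51 in XXF, 3.58 in XXM, 3.54 in XYF and 3.52 in XYM (log2 CPM). The subiculum and neocortex levels were not fitted as covariates, so these counts do not bear on those tissues.

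**Figure D2:**
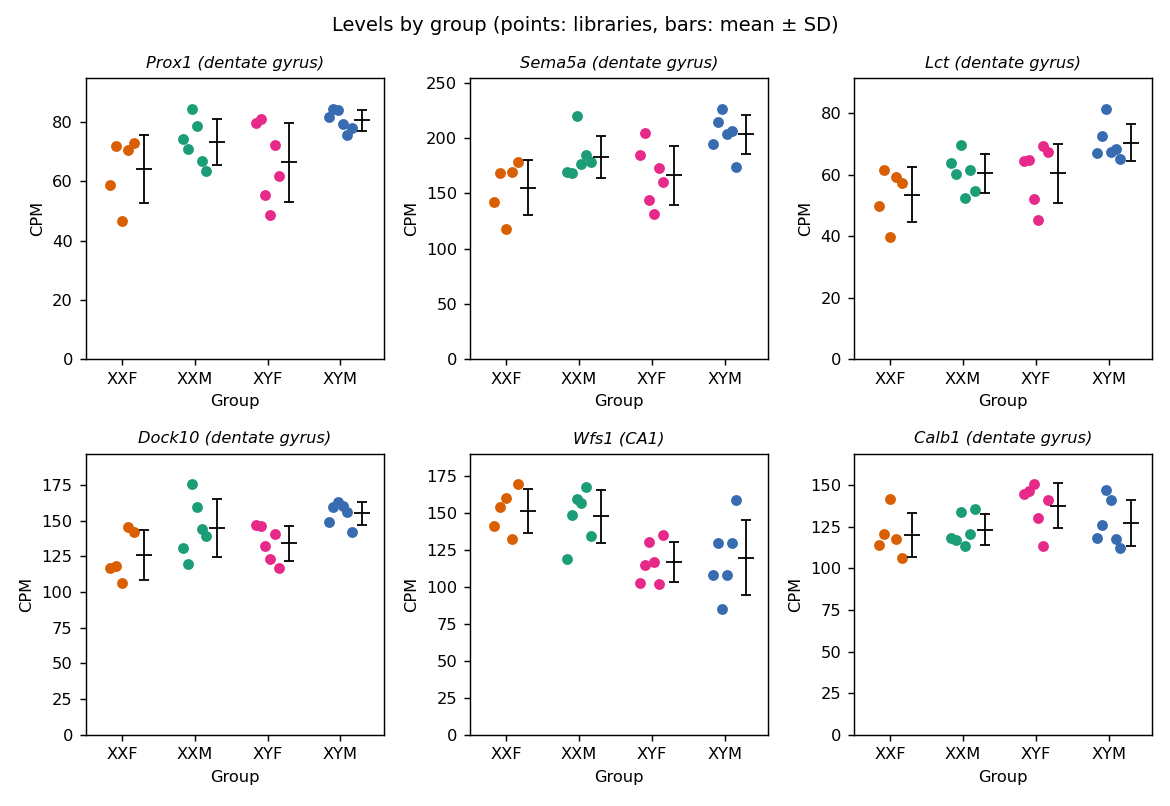
CPM of 6 markers in every library by group (points), with the mean and SD of each group beside them (bars). For Prox1 and Lct all XYM libraries lie above all XXF libraries, for Wfs1 most XY libraries lie below most XX libraries, and Calb1 has its highest median in XYF. The share of all genes that separate XYM from XXF was not counted.

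For the sex chromosomes, the smallest p of all markers belonged to Wfs1, which encodes wolframin, a protein of the endoplasmic reticulum, and marks CA1. Its levels were 142, 154, 160, 132 and 170 CPM in XXF and ranged from 119 to 168 in XXM (median 153). In XYF it ranged from 102 to 135 CPM (median 116) and in XYM from 85.2 to 159 (median 119). The 7 libraries with the lowest Wfs1 were all XY, and XYM replicate 6, at 159 CPM, stood above the other XY libraries, the next of which was at 135 CPM. The log2 difference, XY minus XX, was -0.34 ± 0.08, a 1.26-fold lower level in XY mice, with an unadjusted p of 0.000268 and an adjusted p of 0.0785 by edgeR.

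This p lay near the threshold and crossed it under 4 alternatives. The adjusted p was 0.00737 with DESeq2 and 0.0398 by edgeR with the choroid plexus level as a covariate. Leaving out XXM replicate 1 gave 0.0345 and leaving out XYM replicate 6 gave 0.00907, also by edgeR, while leaving out XYF replicate 4 gave 0.111. Over all alternatives run, the log2 difference of Wfs1 lay between -0.39 and -0.30 and its adjusted p between 0.00737 and 0.207.

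Mpped1, a gene of a metallophosphoesterase family, had 281, 286, 344, 275 and 301 CPM in XXF. It ranged from 262 to 305 in XXM (median 285), from 228 to 292 in XYF (median 268) and from 227 to 296 in XYM (median 252). The groups overlapped, and the log2 difference was -0.14 ± 0.05 with an adjusted p of 0.514 by edgeR. Pou3f1, a POU domain transcription factor, had 42.8, 49.1, 34.3, 35.5 and 42.1 CPM in XXF and medians of 35.9 (XXM), 34.8 (XYF) and 35.5 CPM (XYM). Only some XXF libraries stood above the rest, and the log2 difference was -0.14 ± 0.06 with an adjusted p of 0.631 by edgeR.

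Fibcd1, a membrane receptor that binds acetylated sugars, gave nearly level values. It had 196, 161, 171, 196 and 203 CPM in XXF and medians of 188 (XXM), 193 (XYF) and 182 CPM (XYM), with log2 differences of -0.02 ± 0.06 for the sex chromosomes and -0.01 ± 0.06 for the gonad. Of the 8 CA1 markers, 3 (Wfs1, Mpped1 and Pou3f1) were lower in XY mice at an unadjusted p under 0.05 by edgeR, where 3.41% of all genes were, and 0 were higher. The median over CA1 was -0.02 (log2), against 0.00 over all genes. The other 5 CA1 markers, among them the mannosidase gene Man1a and the orphan receptor gene Gpr161, had log2 differences between -0.03 and 0.07.

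All 11 dentate markers had a positive sex chromosome difference, where 50.9% of all genes did, with a median of 0.10 (log2). Plk5 at 0.0002 and C1ql2 at 0.015 were close to no difference. Most dentate pairs were positively correlated within groups, so these markers do not count as independent observations. Lct at 0.20 ± 0.07, Dsp at 0.21 ± 0.10 and Calb1 at 0.12 ± 0.06 were higher in XY mice at an unadjusted p under 0.05 by edgeR, which makes 3 of 11, where 3.37% of all genes were. Their adjusted p were 0.529, 0.7 and 0.693. The count of 3 ranged from 1 to 6 when single libraries were left out, with 6 without XXM replicate 3 and 4 without XYF replicate 4. It was 1 without each of XXF replicate 4, XXM replicate 1, XXM replicate 2, XYF replicate 1, XYF replicate 2 and XYM replicate 3.

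Of the CA2 markers, Rgs14, Pcp4 and Amigo2 gave small differences in both contrasts. Rgs14, a regulator of G protein signalling that limits plasticity in CA2, had 120, 137, 116, 128 and 122 CPM in XXF and medians of 125 (XXM), 127 (XYF) and 119 CPM (XYM). Pcp4 had 76.0, 94.9, 109, 91.1 and 91.6 CPM in XXF and medians of 93.3 (XXM), 101 (XYF) and 93.3 CPM (XYM). Amigo2, an adhesion protein gene, had 34.1, 25.0, 32.0, 37.1 and 33.2 CPM in XXF and medians of 34.8 (XXM), 33.0 (XYF) and 32.2 CPM (XYM). The groups overlapped for all 3 genes, and their log2 differences for the gonad and the sex chromosomes lay between -0.02 and 0.07, none of them larger than its standard error. Necab2, a calcium-binding protein gene, had a sex chromosome difference of -0.13 ± 0.07 (log2), with an adjusted p of 0.792 by edgeR.

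Map3k15, a kinase of the MAP kinase cascade on the X chromosome, was the CA2 marker with the widest values. It had 4.31, 3.05, 1.81, 2.30 and 2.74 CPM in XXF and ranged from 2.57 to 6.13 in XXM (median 4.84), from 2.20 to 5.67 in XYF (median 3.12) and from 1.86 to 6.53 in XYM (median 3.37). Its groups overlapped, although the XXM median lay above the highest XXF library. The log2 differences were 0.39 ± 0.20 for the gonad, with an adjusted p of 0.399, and -0.03 ± 0.20 for the sex chromosomes, with an adjusted p of 0.992 (edgeR). Exons of Map3k15 overlap those of Pdha1 on the opposite strand, and the labels do not state whether strand was used in counting.

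In CA3, Cpne4, a copine that binds membranes when calcium is present, was the steadiest marker of all. It had 119, 124, 117, 134 and 127 CPM in XXF and medians of 124 (XXM), 123 (XYF) and 133 CPM (XYM), and spanned 112 to 139 CPM over all 23 libraries. Bok, a member of the BCL2 family, had 54.0, 60.2, 63.4, 64.6 and 65.8 CPM in XXF and ranged from 56.4 to 71.2 in XXM (median 64.8), 60.3 to 82.6 in XYF (median 70.6) and 53.3 to 88.1 in XYM (median 61.1). The highest value of Bok came from XYM replicate 3. Iyd, an enzyme that removes iodine from tyrosine, had 4.58, 3.64, 2.25, 3.48 and 4.43 CPM in XXF and medians of 4.01 (XXM), 3.62 (XYF) and 4.82 CPM (XYM). Its gonad difference was 0.27 ± 0.12 (log2), with an adjusted p of 0.325 by edgeR, and the groups overlapped.

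The 2 mossy cell markers were scarce, and Drd2 differed more between animals of a group than any other marker. Drd2, the dopamine D2 receptor, had 0.933, 3.44, 1.97, 1.92 and 3.94 CPM in XXF and ranged from 1.77 to 3.43 in XXM (median 2.69), from 0.894 to 4.29 in XYF (median 2.26) and from 1.87 to 2.83 in XYM (median 2.10). Within XXF and XYF alone the levels spanned more than the medians of the groups. Csf2rb2, a receptor subunit for interleukin-3, had 5.86, 3.34, 3.02, 3.89 and 2.01 CPM in XXF and medians of 4.30 (XXM), 4.14 (XYF) and 4.28 CPM (XYM). It has a near-identical neighbour, Csf2rb, so reads may have been divided between the copies. Neither contrast reached an unadjusted p under 0.05 for either gene in edgeR's test.

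Neurod6, a transcription factor of pyramidal neurons, had 194, 216, 250, 229 and 209 CPM in XXF and medians of 224 (XXM), 221 (XYF) and 220 CPM (XYM). Its log2 differences of 0.03 ± 0.06 in both contrasts were below their standard errors. Among the markers with no subfield assigned, Nrip3 had a gonad difference of 0.10 ± 0.05 (log2, adjusted p of 0.332 by edgeR). Cpne7 and Ociad2 gave log2 differences between -0.00 and 0.09 in the gonad and sex chromosome contrasts.

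The interaction asked whether the gonad difference was the same in XY and XX mice. The smallest p among the markers belonged to Bok, at -0.22 ± 0.14 (log2), Map3k15, at -0.57 ± 0.41, and Calb1, at -0.15 ± 0.11. Each of the 3 had an adjusted p of 0.999 by edgeR. The interval for Map3k15 ran from -1.41 to 0.27 and those of Bok and Calb1 from -0.51 to 0.08 and -0.38 to 0.08.

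No marker completely separated XY from XX libraries, or libraries with testes from those with ovaries. For 0 of the 34 did all XY libraries lie on one side of all XX libraries, which was so for 0.102% of all genes, and for 0 of 34 did the libraries with testes lie on one side of those with ovaries, which was so for 0.00726%.

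Many subfield markers varied between animals of the same group more than genes at a like level. The spread was taken as the SD of log2 CPM within groups. Over all genes its median was 0.15, and over the 34 markers it was 0.20. Of the markers, 5 lay above the 90th percentile of all genes, where 1377 of all 13765 genes lie by construction. They were Drd2 at 0.57, Map3k15 at 0.52, Csf2rb2 and Dcn at 0.41 and Cacng5 at 0.39. Compared only with genes within 0.5 of their own mean log2 CPM, 18 of 34 markers lay above the 90th percentile, and the median marker lay at the 90.8th. The narrowest were Cpne4 at 0.09 and Ociad2 at 0.10.

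Dcn, which encodes the matrix proteoglycan decorin and whose level in pyramidal neurons differs along the dorsal to ventral axis, stood out most for its level, at the 99.5th percentile. Its levels were 84.8, 24.7, 81.1, 78.8 and 53.4 CPM in XXF, and it ranged from 49.5 to 89.9 in XXM (median 72.7), 51.4 to 88.6 in XYF (median 77.2) and 56.5 to 73.9 in XYM (median 68.5). XXF replicate 2 was far below all other libraries. Cacng5, a regulatory subunit of AMPA receptors, had 14.4, 17.1, 13.1, 13.04 and 27.0 CPM in XXF and ranged from 9.42 to 21.7 in XXM, 12.6 to 24.2 in XYF and 11.8 to 20.5 in XYM. Its highest library was XXF replicate 5 and its lowest XXM replicate 1.

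**Figure D3:**
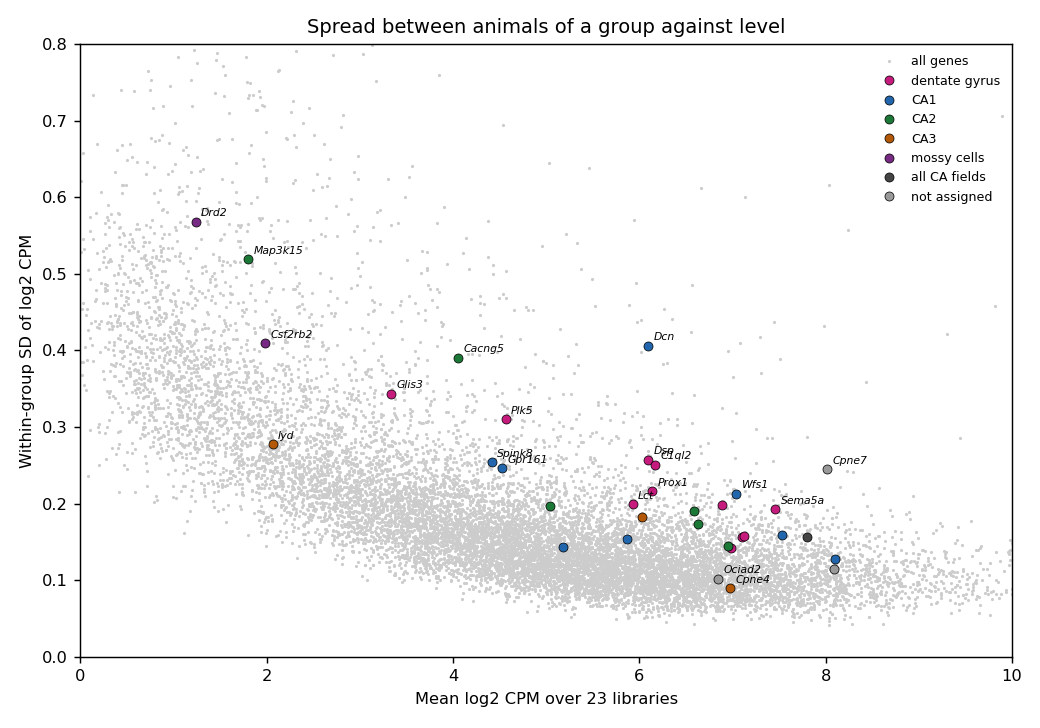
Within-group SD of log2 CPM against mean log2 CPM for all genes (grey) and the 34 markers (coloured by subfield), with axes that leave out genes past 10 on the x axis or 0.8 on the y axis. Drd2 and Map3k15 have the widest spread of the markers, and Dcn and Cpne7 stand far above genes of a like level.

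A few libraries held many of the extremes. XXF replicate 3 had the lowest level of 8 markers, 6 of them dentate, while it was lowest for 5.88% of all genes. XYF replicate 4 was lowest for 6 markers, against 8.25% of all genes, and XYM replicate 3 was highest for 9, against 6.42%. The mean log2 CPM of the 11 dentate markers ran from 5.70 in XXF replicate 3 to 6.47 in XYM replicate 3. That of the 8 CA1 markers ran only from 5.91 to 6.25, and that of the 6 CA2 markers from 4.96 to 5.44. The mean of the 3 CA3 markers ran nearly as widely, from 4.69 in XXF replicate 3 to 5.40 in XYM replicate 3. For the 2 mossy cell markers it ran from 1.11 to 1.91. A wide range was thus not particular to the dentate markers. The dentate mean minus the CA1 mean was lowest in XXF replicate 3, at -0.46, and highest in XYM replicate 3, at 0.48. By group it was -0.11 ± 0.25 in XXF, 0.07 ± 0.13 in XXM, 0.07 ± 0.20 in XYF and 0.22 ± 0.16 in XYM (mean ± SD), with overlapping ranges.

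Further subfield markers outside the list showed the same extremes in part. Tdo2, a tryptophan-degrading enzyme of granule cells, ranged from 4.11 CPM in XXF replicate 3 to 14.7 CPM in XYM replicate 3. Nov, a secreted matrix protein of CA1, was highest in XXF replicate 3, at 196 CPM. Trpc6 was highest in XYM replicate 3 (36.4 CPM), but C1ql3 had its extremes in other libraries.

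**Figure D4:**
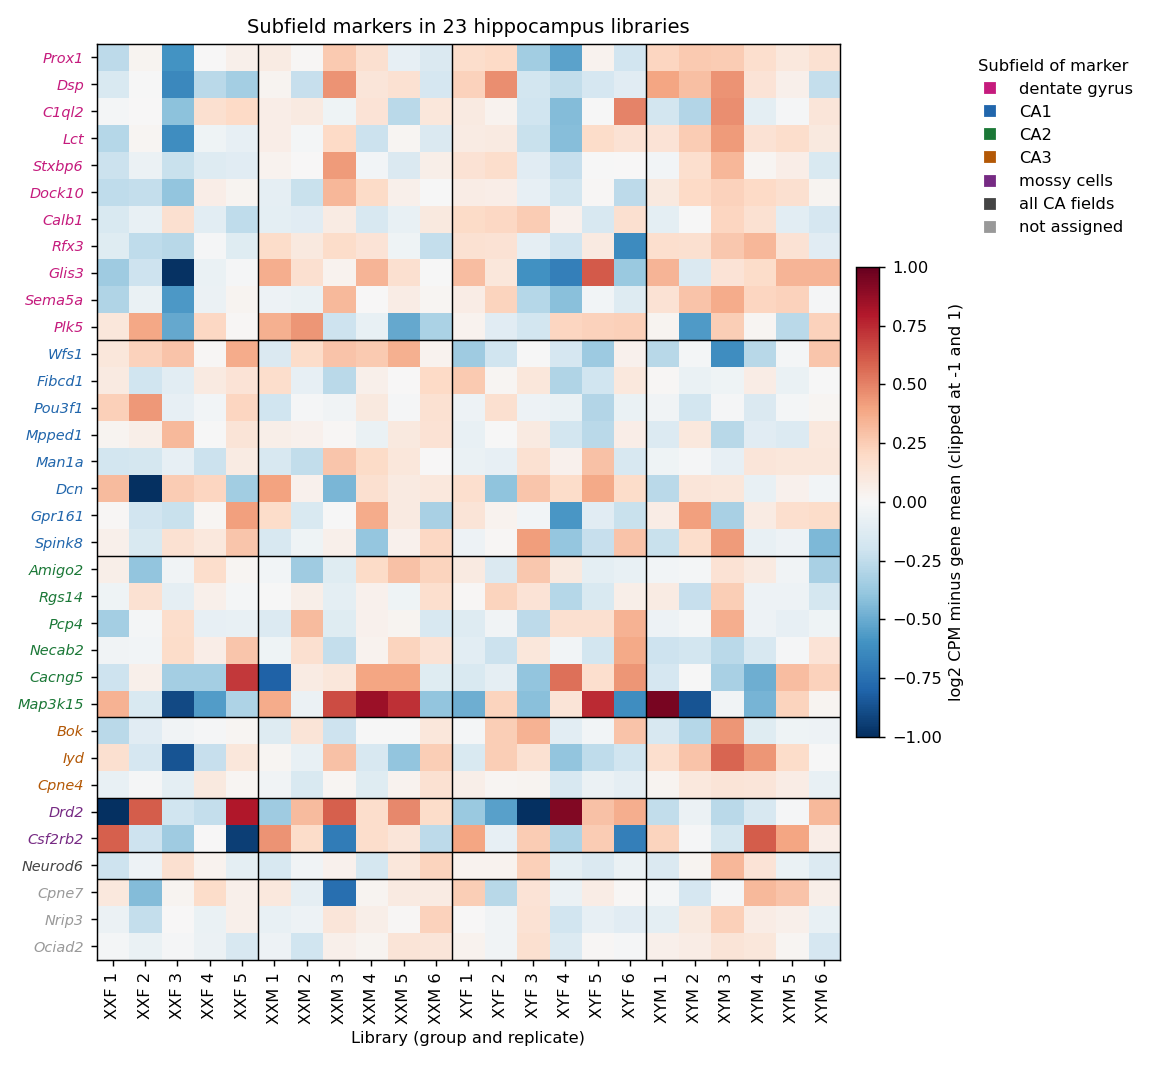
Log2 CPM of each marker (rows, grouped and coloured by subfield) minus its mean, in each of the 23 libraries (columns), with colours ending at -1 and 1. XXF replicate 3 is blue for most dentate markers and XYM replicate 3 is red for most of them.

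Within groups, most pairs of dentate markers were positively correlated across libraries. Correlations were taken over the 23 libraries after the group means of log2 CPM had been removed, in a family of 583 pairs, with p from 100000 permutations within groups and Benjamini-Hochberg adjustment. They share library depth and the makeup of the dissected piece. Among the 55 dentate pairs the median Pearson r was 0.44, with 43 positive and 12 at an adjusted p under 0.05. The median was 0.05 over 28 CA1 pairs and -0.05 over 15 CA2 pairs, with 0 passing in either. Over the 333 pairs from different subfields it was 0.01, with 8 passing. The medians were not tested against each other.

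The closest dentate pair was Prox1 and Sema5a. Their Pearson r was 0.88 (permutation p = 1e-05, the smallest these permutations can give, adjusted 0.00194) and their Spearman coefficient 0.82 (permutation p = 6e-05, adjusted 0.005), and r was 0.79 without the 2 libraries farthest from the median of Prox1. Of 13764 other genes, Sema5a was the one most correlated with Prox1. Lct and Sema5a gave r = 0.84 (permutation p = 3e-05, adjusted 0.0035) and a Spearman coefficient of 0.79 (permutation p = 0.00013, adjusted 0.00689), with r = 0.71 without the 2 libraries farthest from the median of Lct. Calb1 did not follow. With Prox1 it gave r = -0.20 (permutation p = 0.427, adjusted 0.701) and a Spearman coefficient of -0.09 (permutation p = 0.68, adjusted 0.874), whereas with Neurod6 it gave r = 0.83 (permutation p = 2e-05, adjusted 0.00291), a Spearman coefficient of 0.83 (permutation p = 2e-05, adjusted 0.00389) and r = 0.84 without the 2 farthest libraries.

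Outside the dentate gyrus, the mossy cell marker Drd2 was high in the libraries in which Cacng5 was high. Drd2 and Cacng5 gave r = 0.74 (permutation p = 5e-05, adjusted 0.00416) and a Spearman coefficient of 0.81 (permutation p = 5e-05, adjusted 0.00486), with r = 0.69 without the 2 farthest libraries. Drd2 and Csf2rb2 gave r = -0.64 (permutation p = 0.00568, adjusted 0.0753) and a Spearman coefficient of -0.57 (permutation p = 0.014, adjusted 0.137). Ordered by r with Drd2 from the highest down, Csf2rb2 came at place 13751 of 13764 other genes. The mossy cell markers thus did not rise and fall together in these libraries. Both Drd2 and Cacng5 also went with Prkcd, a kinase gene of the thalamus list (5 of 6 found). Cacng5 and Prkcd gave r = 0.90 and a Spearman coefficient of 0.92 (permutation p = 1e-05 for both, adjusted 0.00194 and 0.00389), and r = 0.89 without the 2 farthest libraries. For Drd2 and Prkcd r was 0.76 and the Spearman coefficient 0.82 (permutation p = 0.00026 and 9e-05, adjusted 0.0117 and 0.00583), and r was 0.78 without the 2 farthest.

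The other thalamus genes did not follow Drd2 or Cacng5 at an adjusted p under 0.05, with r between 0.02 and 0.42. The thalamus list summed to 64.0 to 103 CPM in XXF, 73.6 to 101 in XXM, 65.6 to 111 in XYF and 72.7 to 101 in XYM. Among striatal genes (4 of 5 found), Drd2 gave r = 0.61 for Adora2a, an adenosine receptor gene (permutation p = 0.00066, adjusted 0.0192), with a Spearman coefficient of 0.73 (permutation p = 0.0001, adjusted 0.00583) and r = 0.63 without the 2 farthest libraries. The striatum list summed to 79.5 to 106 CPM in XXF, 83.4 to 143 in XXM, 76.4 to 183 in XYF and 77.6 to 113 in XYM. Drd2 is also a defining gene of striatal neurons, and the part of either tissue in its spread was not tested. Rgs9, of the same list, stood at 108 CPM in XYF replicate 4, which also had the highest Drd2, against at most 29.7 CPM elsewhere. Without XYF replicate 4, r was 0.73 for Drd2 and Prkcd, 0.71 for Drd2 and Cacng5, 0.58 for Drd2 and Adora2a and -0.64 for Drd2 and Csf2rb2. It was 0.89 for Cacng5 and Prkcd, 0.85 for Prox1 and Sema5a, 0.79 for Lct and Sema5a, -0.30 for Prox1 and Calb1 and 0.83 for Calb1 and Neurod6.

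Dcn and Cpne7 were each correlated with a different gene of the ventral hippocampus list (3 of 3 found, summing to 37.8 to 63.8 CPM over all libraries). Their pairs with the other genes of that list were also in the family and are not given here. The pairs shown therefore do not describe the list as a whole. Dcn and Trhr, a receptor for thyrotropin-releasing hormone, gave r = 0.75 (permutation p = 0.00094, adjusted 0.0238) and a Spearman coefficient of 0.62 (permutation p = 0.00344, adjusted 0.0615), and r = 0.48 without the 2 farthest libraries. Cpne7 and Nr2f2, a nuclear receptor, gave r = 0.77 (permutation p = 0.00055, adjusted 0.0178), a Spearman coefficient of 0.67 (permutation p = 0.00087, adjusted 0.0298) and r = 0.63 without the 2 farthest. Dcn and Cpne7 gave r = 0.68 (permutation p = 0.00203, adjusted 0.0394) but a Spearman coefficient of 0.39 (permutation p = 0.067, adjusted 0.317), and the 2 lowest libraries of both genes were XXF replicate 2 and XXM replicate 3. With the collagen genes Col1a2 and Col3a1 of fibroblasts, which also make decorin, Dcn gave r = 0.38 and r = 0.40 (permutation p = 0.21 and 0.194, adjusted 0.502 and 0.481) and Spearman coefficients of 0.42 and 0.33. Among CA3 and CA2 markers, Rgs14 and Bok gave r = 0.74 (permutation p = 0.0006, adjusted 0.0184) and a Spearman coefficient of 0.70 (permutation p = 0.00108, adjusted 0.0315), with r = 0.61 without the 2 farthest libraries. In CA1, Wfs1 and Mpped1 gave r = 0.62 and a Spearman coefficient of 0.56 (permutation p = 0.0053 and 0.0128, adjusted 0.0719 and 0.131).

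**Figure D5:**
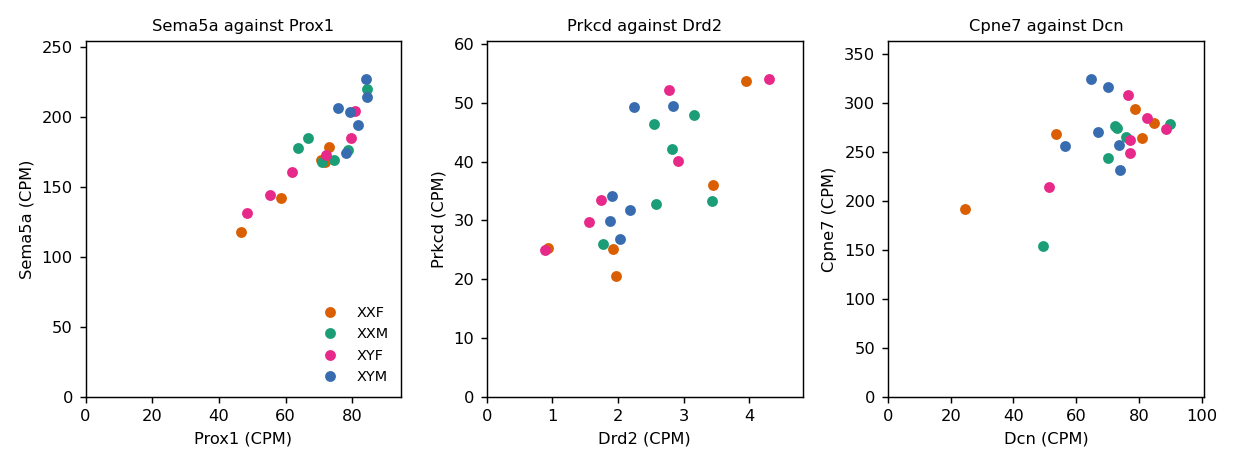
CPM of 3 gene pairs in the 23 libraries, coloured by group. Sema5a rises with Prox1 over the whole range, Prkcd is high where Drd2 is high, and the libraries lowest for Dcn are also the lowest for Cpne7.

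Exons of 9 markers overlap another gene, 6 of them on the opposite strand. Besides Map3k15 these include Prox1, which overlaps its antisense transcript Prox1os, Dsp, Amigo2, Man1a and Pou3f1. Pcp4 overlaps Igsf5 on the same strand. Reads in the shared stretches cannot be assigned with certainty to one gene of each pair.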

How the data were processed

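RNA from 23 snap-frozen mouse hippocampi (500 ng each) was ribosome-depleted and made into strand-specific libraries read as 100-base pairs, per the labels' protocols. The authors deposited estimated counts per RefSeq gene, and log2 normalized values less a baseline for each gene, per the file headers. The headers also state that genes had raw values of at least 20 in 100% of the samples of at least 1 of the 4 conditions. The genome build mm10 and DESeq are named in the submitters' processing notes without a role; for the aligner, the counter and strand use, nothing is given in the sources used here.

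Estimated counts were rounded to whole numbers and tested with edgeR 4.0.16 (R 4.3.3) by the quasi-likelihood test with TMM scaling, 1 mean per group over all 4 groups, 2-sided, with Benjamini-Hochberg adjustment over 13766 genes. Each p-value of these tests sets a difference between groups against the spread between animals. Log2 CPM used a prior count of 2, and exon lengths came from the GENCODE annotation of GRCm38. On simulated counts for 13766 genes, the sex chromosome test recovered 92% of 1.5-fold changes, the gonad test 95% and the interaction test 65%. Of the genes called, 4.04%, 3.98% and 7.41% were false, in that order. Changed genes were drawn at random, and counts were simulated without variation shared between genes. Recovery for the markers themselves, or for changes smaller than 1.5-fold, was not measured. Alternatives were DESeq2 1.42.0, limma 3.58.1 (voom with sample weights, and on the deposited log2 values), RLE and upper quartile scaling, a mean of at least 10 CPM, choroid plexus or thalamus covariates, and leaving out each library.

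The markers, lists and tests were chosen with earlier results of these data known. Values are given for anchor markers of each subfield, for Lct, Wfs1 and Dcn, for the 3 markers with the smallest p in each test, and for the 5 widest and 2 narrowest spreads. The other dentate markers, the pairs and the sequences were chosen after their values were seen. Oligodendrocyte markers (5 of 5 found) summed to 3484 to 5580 CPM over the libraries and astrocyte markers (4 of 4 found) to 821 to 1096 CPM. Replicate numbers follow accession order and pair no samples. Values of some other genes are not reported here.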

Additional observations from a re-analysis of the deposited data

Results flagged for a closer look

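Within each group of 5 or 6 libraries, the gap between an extreme library and the nearest other library was compared with the range of the group (Dixon's test at the 95% level). Of 136 groups tested (34 markers in 4 groups), 7 had such a library, and chance alone gives about 1 in 20. Among dentate markers, XXM replicate 3 was high for Stxbp6, at 185 CPM against 143 for the next library and for Sema5a, at 220 against 185. In XYM replicate 3, the library with the highest dentate level, Pcp4 stood at 124 CPM against 95.3 and Bok at 88.1 against 63.2. Cpne7 was low in XXF replicate 2, at 192 CPM against 264, and in XXM replicate 3, at 154 against 244. Dcn was low in XYF replicate 2, at 51.4 CPM against 76.6.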

How the results depend on the processing

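Over the 606 alternative values computed for 19 single-marker results, 0 reversed direction and 5 passed the threshold: Wfs1 in 4 settings and Sema5a in 1. The count of markers passing for the sex chromosomes was 1 in place of 0 with DESeq2 and with the choroid plexus covariate, and from 0 to 1 when single libraries were left out. For the gonad it was 1 with DESeq2 and 0 without each library. The count of dentate markers higher in XY mice at an unadjusted p under 0.05 was 3, and it was 1 with limma on the deposited log2 values and 1 to 6 when single libraries were left out. The count of dentate markers higher with testes was 8, and it was 4 without XXF replicate 3 and XYF replicate 4 together and 7 to 8 without single libraries. The causes of these shifts were not tested. Over all genes, the 22 calls for the gonad were 98 with DESeq2, 76 with limma voom, 41 with the choroid plexus covariate and 4 above a mean of 10 CPM; the 39 calls for the sex chromosomes were 60, 68, 61 and 25. No paired analysis was possible because the labels give no replicate numbers shared between groups. Library totals differed 3.52-fold, and Drd2, Csf2rb2 and Map3k15 rest on the fewest counts.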
